A study of Mus musculus with 3 samples.

Results

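miR-7a, miR-7b and miR-375 are miRNAs best known from hormone-secreting and neural cells, and their level was followed in serum of tumour-bearing mice. They are 3 of 566 probes of a NanoString nCounter mouse miRNA panel, taken as the rows carrying exactly these names. The Tn+ serum came from female BALB/c mice, 6 to 8 weeks old at purchase, that received cells of the 4T1/Tn+ line in a mammary fat pad. 4T1 is a mouse mammary carcinoma line used as a model of triple-negative breast cancer, and the Tn+ line was made with a CRISPR/Cas9 guide against exon 2 of Cosmc, a chaperone needed to extend O-glycans, whose loss leaves the short glycan called Tn on the cell surface. The Tn- serum came from mice of the same kind carrying Tn- 4T1 tumours. All mice received 100000 cells and were killed on day 28. The labels do not say whether the Tn- cells went through a mock edit, or whether the Tn+ line is 1 clone. Serum was pooled within each status, and the data are 2 Tn+ pools and 1 Tn- pool. How many mice went into a pool, and whether different mice supplied each Tn+ pool, is not stated. Any p-value here rests on the spread of the Tn+ pair and on that of other probes, and does not measure a spread between mice.

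miR-7 is an ancient miRNA that is abundant in pancreatic islets, pituitary, hypothalamus and brain, where it lowers the output of growth factor signalling genes such as Egfr. In the brain its amount is tied to the circular RNA Cdr1as, which carries many miR-7 sites and is itself cut under the direction of miR-671. miR-375 is an islet miRNA that restrains insulin secretion and sustains beta cell mass, and it is also found in pituitary, gut and other epithelia. A serum miRNA is a mixture of what many tissues release, so more releasing cells and more RNA released per cell cannot be told apart in these data.

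miR-7a and miR-7b are shown because they share the bases that choose their targets, while the order of the pools differed between them. Both are printed 5′ to 3′ with the seed (bases 2 to 8) in capitals, from RefSeq on mouse build GRCm38.p6.
miR-7a-5p: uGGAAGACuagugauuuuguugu
miR-7b-5p: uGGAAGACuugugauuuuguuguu
Counted from the 5′ end, the sequences differ by A10U (miR-7a first) over the 23 positions they share, and miR-7b ends with 1 more base. Of 1679 mature mouse miRNAs in the RefSeq table, these 2 alone carry the seed, and both have a probe. Apart from each other, the closest of 648 mature arms of panel miRNAs were miR-338-3p and miR-300-5p for miR-7a, at edit distances of 7 and 8, and 9 arms at a distance of 9 for miR-7b. The probe for miR-338-3p lay at the lowest deposited value in every pool. The miR-300 probe, whose name gives no arm, had 1 and 4.97 units in the Tn+ pools, against 1.08 in the Tn- pool. It was matched by base name, so whether it reads miR-300-5p or the other arm was not established. miR-375 is named only.

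miR-7a is made from 2 genes and miR-7b from 1, shown here as hairpins with the mature strand in capitals, because the miR-7a probe cannot tell its 2 source genes apart.
Mir7-1: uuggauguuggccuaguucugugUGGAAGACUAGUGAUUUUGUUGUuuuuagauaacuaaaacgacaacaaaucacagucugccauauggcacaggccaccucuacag
Mir7-2: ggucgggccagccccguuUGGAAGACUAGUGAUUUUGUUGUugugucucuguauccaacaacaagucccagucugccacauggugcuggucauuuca
Mir7b: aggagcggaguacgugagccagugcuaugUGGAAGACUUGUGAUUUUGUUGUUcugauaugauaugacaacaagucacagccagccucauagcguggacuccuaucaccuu
Mir7-1 lies at chr13:58392779-58392886 on the minus strand, within the span of Hnrnpk, which encodes an RNA-binding protein. Mir7-2 lies at chr7:78888277-78888373 on the plus strand, within 10 kb of Aen, and Mir7b at chr17:56242988-56243098 on the plus strand, within 10 kb of the lncRNA gene A230051N06Rik. Mir375 lies at chr1:74900658-74900721 on the minus strand, between Cryba2 and Cfap65. The annotation table used here holds gene spans and no exons, so exon and intron could not be assigned. No probe of the opposite arm of these hairpins was on the panel (0 probes).

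The deposited values are normalized signals in arbitrary units. In each pool most probes share its lowest value, called the floor here, which was 1 and 1.09 units for the Tn+ pools, against 1.08 for the Tn- pool. The floor was exceeded by 228 and 150 probes in the Tn+ pools, against 85 in the Tn- pool, and by 60 probes in all 3. Summed over all probes the signal was 59444 and 31977 units in the Tn+ pools, against 4204 in the Tn- pool. Low values advanced in regular steps of 0.896 and 1.09 units for the Tn+ pools and 1.08 for the Tn- pool, so a difference of a few units is a difference of a few steps. The red cell list (miR-451, miR-144, miR-486 and miR-16) summed to 47200 and 17100 units in the Tn+ pools, against 2130 in the Tn- pool. Of these 4, miR-144 alone lay at the floor, in the Tn- pool.

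miR-7a had the largest ratio of the 3 on the deposited scale. It had 22.27 and 26.73 units in the Tn+ pools, against 1.08 units, the floor, in the Tn- pool. The Tn+ pools averaged 24.5 ± 3.15 units (SD, n = 2) and differed from each other by 1.2-fold. In both of them miR-7a stood exactly 23 steps above the lowest value over the floor, so the gap between them is that of their step sizes. Set over 3 steps of the Tn- pool, 3.23 units, its signal was 6.89-fold and 8.27-fold, a ratio that is not a lower limit because the background taken off by the authors is unknown.

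miR-7b stayed near the floor everywhere, and its order was the opposite one. It had 1.67 and 1.09 units in the Tn+ pools, against 3.73 in the Tn- pool. The first of these is the lowest value above the floor in Tn+ pool 1, the second is the floor of Tn+ pool 2, and the Tn- value lies 2 steps above the lowest one over its floor. Of the 85 probes above the floor in the Tn- pool, 41 lay at or below this value.

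miR-375 overlapped between the groups. It had 6.15 and 22.38 units in the Tn+ pools, against 8.04 in the Tn- pool, and was above the floor in all 3. Tn+ pool 1 and the Tn- pool lay 5 and 6 steps above their lowest values, and Tn+ pool 2 lay 19 steps above. The Tn+ pools averaged 14.3 ± 11.5 units (SD, n = 2) and were 3.64-fold apart, with the Tn- pool between them.

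**Figure D1:**
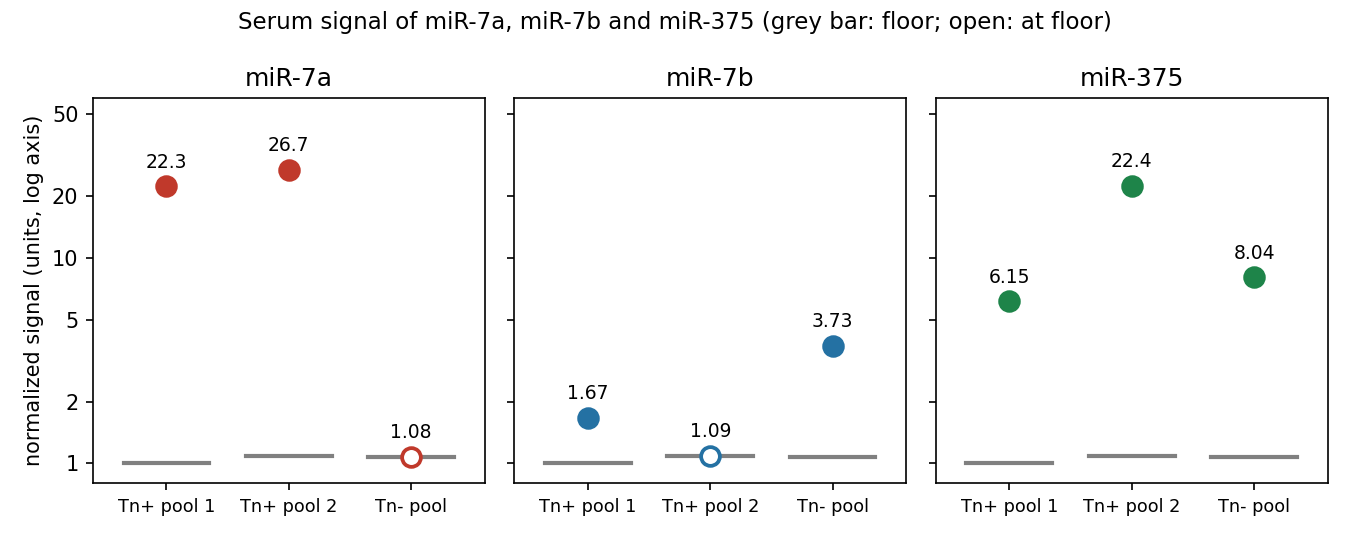
Normalized signal (units, log axis) of miR-7a, miR-7b and miR-375 in each pool, with 1 point per pool, open where the value is the floor, and a grey bar at the floor of that pool. miR-7a lies at 22.3 and 26.7 units in Tn+ serum but at the floor in Tn- serum, miR-7b is at or near the floor throughout, and miR-375 in the Tn- pool lies between the Tn+ pools.

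To compare the groups, limma was fitted to log2(signal + 1) over all 566 probes, with p-values adjusted by Benjamini-Hochberg. miR-7a had a log2 ratio of Tn+ over Tn- of 3.61 (SE 0.21), made of 3.48 for pool 1 and 3.74 for pool 2, and an adjusted p of 0.13 in limma. Its unadjusted limma p was 0.00144, the 6th smallest of all probes. miR-7b had a log2 ratio of -1.0 (SE 0.25), with -0.83 and -1.18 in the single pools, and an adjusted limma p of 0.405. miR-375 had 0.52 (SE 0.97), with -0.34 and 1.37 in the single pools, and an adjusted limma p of 0.895. None of the 3 passed an adjusted p of 0.05, and neither did any other probe (0 of 566, 0%). Before adjustment, 56 probes had a limma p under 0.05 and were higher in Tn+ serum (9.89%), miR-7a among them, and 7 were lower (1.24%), miR-7b among them (unadjusted limma p 0.0422). Each probe has 1 residual degree of freedom, which comes from the Tn+ pair, and the single Tn- pool is taken to vary like it. limma also drew each probe's spread toward a value estimated across all probes, 307 of which lay at the floor in every pool. An exact permutation test of the 3 pools could give no p under 0.333.

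By size alone, each Tn+ pool exceeded the Tn- pool by 2-fold or more for 68 of 566 probes on signal + 1 (12.0%), and miR-7a was one of them, at 11.2-fold and 13.3-fold. A lower signal of 2-fold in both Tn+ pools was found for 4 probes (0.707%) and for none of the members. The pattern of miR-7a, above the floor in both Tn+ pools and at the floor in the Tn- pool, was that of 66 probes (11.7%). That of miR-7b, highest in the Tn- pool, was that of 16 probes (2.83%), and that of miR-375, above the floor throughout with the Tn- pool in the middle, by 13 (2.3%). miR-7a was one of many probes with more signal in Tn+ serum on the deposited scale. The median log2 ratio was -0.02 over all 566 probes, most of them at the floor, 0.71 over the 259 that cleared it in some pool, and 1.47 over the 60 that cleared it in every pool.

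**Figure D2:**
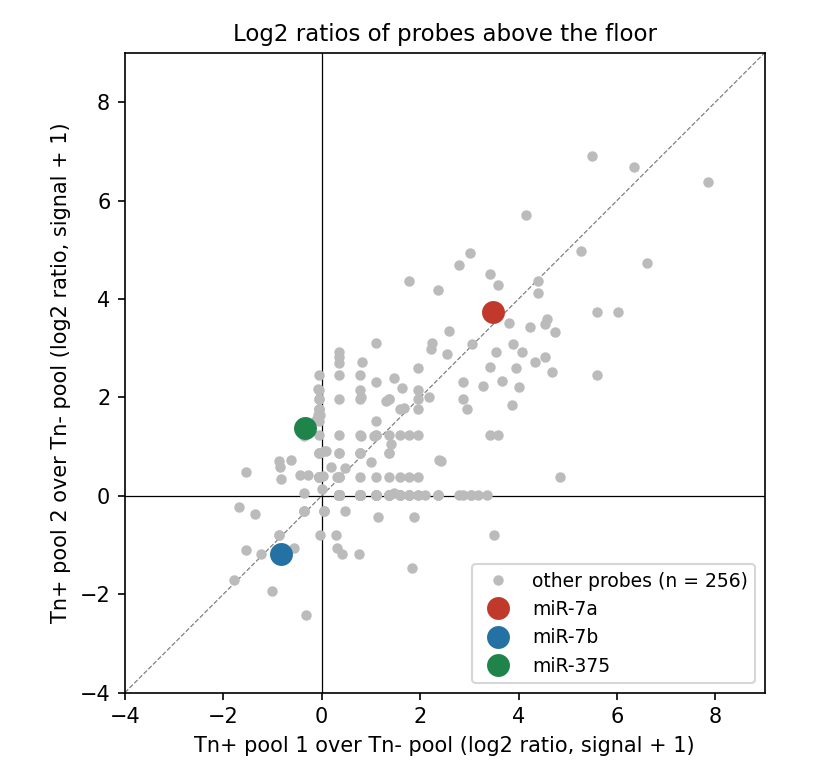
Log2 ratio of signal + 1 over the Tn- pool, for Tn+ pool 1 (horizontal) and Tn+ pool 2 (vertical), with 1 point for each of the 259 probes that cleared the floor in some pool and the dashed line at equal ratios. miR-7a sits at 3.48 and 3.74 among many probes on the higher side, miR-7b at -0.83 and -1.18 on the sparse lower side, and miR-375 has ratios of opposite sign.

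Because the pools differ in total, the members were also read after 3 scalings between pools, each followed by 1 floor common to all pools. Median-of-ratios scaling removed a 3.18-fold difference of Tn+ over Tn- serum, scaling by the 100 highest probes 6.06-fold, and equal totals 10.4-fold. The median log2 ratio of the 60 shared probes was then 0.03, -0.59 and -1.01. The mean log2 ratio of miR-7a was then 2.40, 1.65 and 1.00 in that order, with 0.47 and 1.53 in the Tn+ pools at equal totals. Its Tn- value is the common floor in each case, so these ratios could not fall below 0 and their sign carries no information. Its adjusted limma p was 0.401, 0.339 and 0.63. A 2-fold excess in each Tn+ pool held for miR-7a after the first 2 scalings but not with equal totals. As a share of the summed signal, it made up 0.0375% and 0.0836% in the Tn+ pools, against 0.0257% in the Tn- pool, where the value is the floor.

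miR-7b and miR-375 lay on the Tn- side under the same scalings. miR-7b had log2 ratios of -1.44, -1.55 and -1.61, set by the common floor, at which both Tn+ pools then lay. Such tied probes have a residual spread of 0 and were left out of the fits, as 395, 453 and 478 probes were. miR-375 changed sign, with -1.01, -1.76 and -2.03 (adjusted limma p 0.844, 0.58 and 0.389), and was lower in both Tn+ pools each time. After median-of-ratios scaling it stood at 4.43 and 14.3 units in the Tn+ pools, against 17.4 in the Tn- pool. After the other 2 scalings its Tn+ pool 1 value, 3.06 and 2.07 units, fell below the common floors of 3.59 and 5.14. That pool's ratios were then set by the floor. The sign of miR-375 thus depended on the scale.

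The call on miR-7a also depended on which probes entered the fit. With limma restricted to the 259 probes that cleared the floor in some pool, the adjusted p was 0.0214 (SE 1.15), where 11.2% of probes passed. miR-7a entered this fit only through the Tn+ pools where it is high, so the call is no support for the difference. With floors raised to 3 steps over all 566 probes the log2 ratio was 2.59 and the adjusted limma p 0.00124, where 7.6% passed. Only values at the floor were replaced by 3 steps, so such a probe could end above a probe that had cleared the floor. miR-7b was then set to 3.26 units in Tn+ pool 2, where it lay at the floor, but stayed at 1.67 in Tn+ pool 1. In both fits 1 SE, estimated across probes, served all of them, and probes are not replicate pools.

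**Figure D3:**
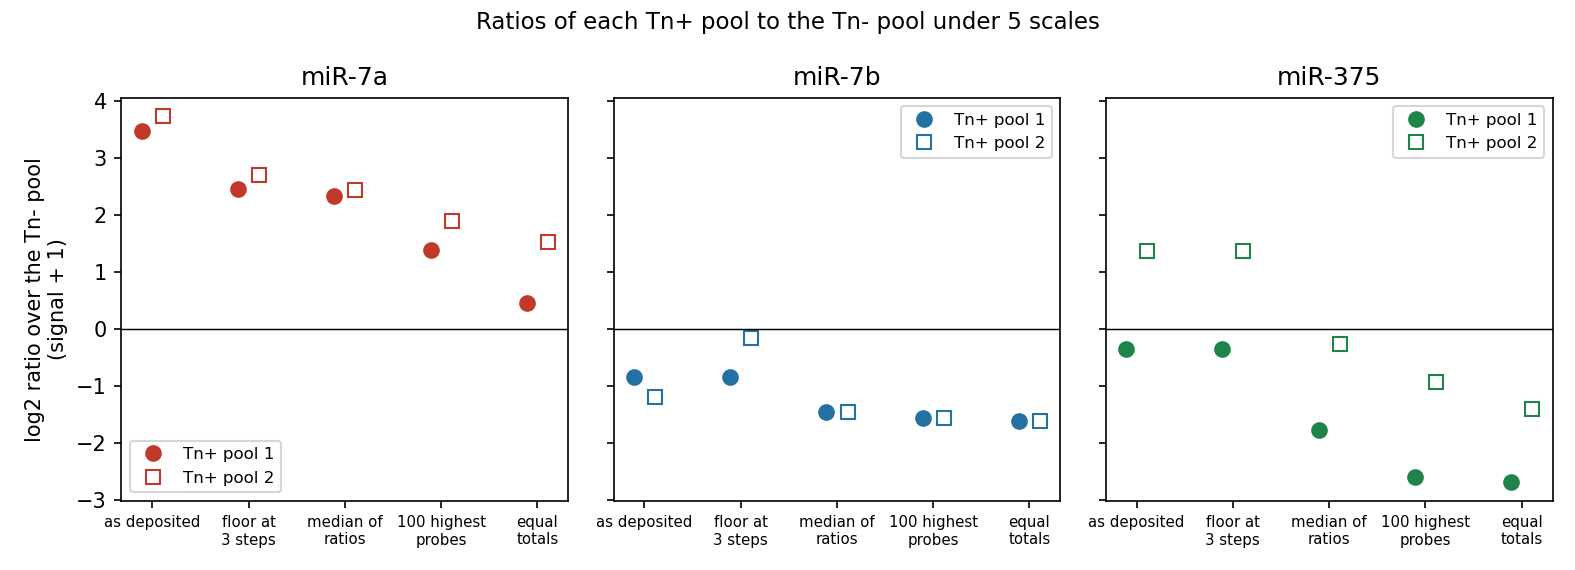
Log2 ratio of signal + 1 over the Tn- pool for each member, with filled circles for Tn+ pool 1 and open squares for Tn+ pool 2. Ratios are shown as deposited, with only the values at the floor set to 3 steps, and after 3 scalings. miR-7a, set over the common floor once scaled, is at 0.47 and 1.53 with equal totals, miR-7b lies between -1.61 and -0.15, and miR-375 in Tn+ pool 2 is at 1.37 as deposited and at -1.39 with equal totals.

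Probes whose signals over the 3 pools lay nearest to each member were found by Euclidean distance on log2(signal + 1). For miR-7a they were let-7c (distance 0.567), miR-191, miR-93, miR-205 and miR-2138. let-7c had 24.06 and 39.78 units in the Tn+ pools, against 1.08 in the Tn- pool, and miR-205, an epithelial miRNA, had 29.43 and 29.99 against 2.65. The miR-7b values were equal to those of miR-1939 in all 3 pools, and miR-743b-3p, miR-380-5p, miR-682 and miR-1929 followed, all with 3.73 units or less in every pool. Nearest to miR-375 were miR-101b (distance 0.596), miR-135a, miR-2183, miR-431 and miR-878-5p. miR-101b had 5.26 and 15.85 units in the Tn+ pools, against 10.2 in the Tn- pool, the same order of pools as miR-375. With 3 pools, and many probes near the floor, likeness of this kind is a description only.

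Other miRNAs of endocrine and pancreatic cells were mostly at the floor. Beside the members, the list held 12 probes, of which 9 lay at the floor in every pool, as did 307 of all 566 probes (54.2%). The 9 included miR-216a and miR-217 of the exocrine pancreas, miR-184 of islets, and miR-96, miR-182 and miR-183 of sensory and endocrine cells. The others of the 9 were miR-200a, miR-200c and miR-141, all of the miR-200 family. The summed signal of the 12 was 18.7 and 18.1 units in the Tn+ pools, against 17.8 in the Tn- pool. Of the 12, 2 and 1 were above the floor in the Tn+ pools, against 1 in the Tn- pool. Most of each sum is therefore floor values, and the likeness of the sums says little about these miRNAs. The 3 above the floor did not run one way. miR-429, of the miR-200 family of epithelia, had 7.05 and 6.06 units in the Tn+ pools, against 1.08 in the Tn- pool. miR-200b of the same family had 1 and 1.09 units in the Tn+ pools, both the floor, against 5.89 in the Tn- pool. miR-216b had 1.67 and 1.09 units, against 1.08. Their median log2 ratio was 0.18, beside 0.71 over all 259 probes above the floor in some pool.

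Neural miRNAs lay at the floor about as often as the panel did. Of 16 neural probes 10 did so in all pools, beside 54.2% of all probes. The 10 included miR-124 and miR-9, the most neuron-defining of the list, together with miR-128, miR-137, miR-153 and miR-212. The summed signal of the list was 45.1 and 35.6 units in the Tn+ pools, against 22.6 in the Tn- pool. These sums include floor values, since 6 and 3 probes were above the floor in the Tn+ pools, against 2 in the Tn- pool. None of the list's members was 2-fold apart from the Tn- pool in the same direction in each Tn+ pool. miR-129-3p came closest, with 3.46 and 9.32 units in the Tn+ pools, against 1.58 in the Tn- pool. miR-488 had 3.46 and 10.41 units in the Tn+ pools, against 5.89 in the Tn- pool, the order seen for miR-375. miR-132, which is induced by neuronal activity, had 14.21 units in Tn+ pool 1 and the floor in Tn+ pool 2, against the floor in the Tn- pool, and miR-219 and miR-218 were also highest in Tn+ pool 1, at 7.94 and 4.36 units. miR-129-5p had 1.67 units there and the floor in the other pools. The median log2 ratio of the 6 above the floor was 0.96, beside 0.71 over all 259 probes above the floor in some pool. Of the 6, miR-132, miR-219 and miR-129-5p were above the floor in Tn+ pool 1 only.

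The strand of miR-671 that cuts Cdr1as in the brain, miR-671-5p, was at the floor in every pool. miR-671-3p from the same hairpin had 2.57 and 2.79 units in the Tn+ pools, against 1.58 in the Tn- pool, log2 ratios of 0.47 and 0.55 within a few steps of the floor.

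**Figure D4:**
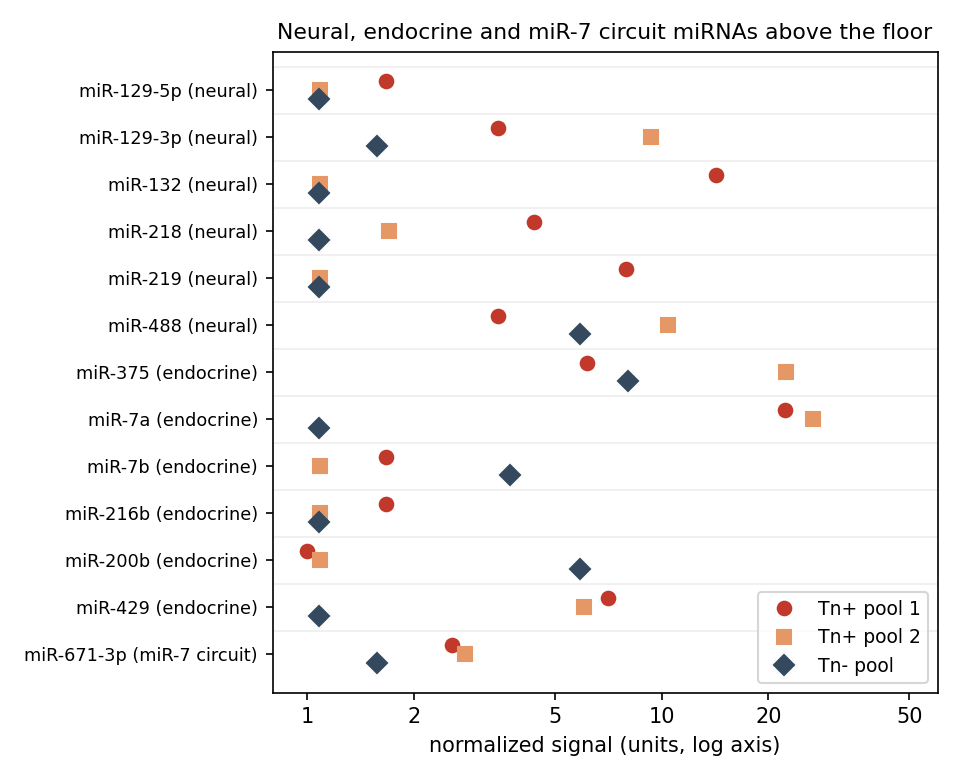
Normalized signal (units, log axis) of the neural, endocrine and miR-7 circuit miRNAs that cleared the floor in some pool, with circles for Tn+ pool 1, squares for Tn+ pool 2 and diamonds for the Tn- pool. miR-7a, at 22.27 and 26.73 units in the Tn+ pools against 1.08, and miR-429, at 7.05 and 6.06 against 1.08, have both Tn+ pools well to the right of a Tn- pool at the floor.

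Markers of blood and liver differed by list and by scale. All 4 red cell probes were 2-fold or more above the Tn- pool in each Tn+ pool, with the sums given earlier. The 2 probes of the platelet list, miR-223 and miR-126-3p, summed to 762 and 260 units in the Tn+ pools, against 137 in the Tn- pool. Most of each sum was miR-223, with 718.89 and 224.75 units, against 136.27. It is also a myeloid miRNA, so the sums and shares of this list do not stand for platelets alone. Both probes were above the floor in the Tn+ pools, while Tn- serum had miR-126-3p at its floor. Of 3 liver probes miR-122 alone was above the floor, with 47.34 and 22.38 units in the Tn+ pools, against 1.08 in the Tn- pool, and miR-192 and miR-194 were at the floor throughout. As shares of the summed signal, the order of the groups was turned for the platelet list. The red cell probes made up 79.4% and 53.5% in the Tn+ pools, against 50.7% in the Tn- pool. The platelet probes made up 1.28% and 0.814%, against 3.27%, and the liver probes 0.083% and 0.0768%, against 0.0771%. That last share consists of floor values only, because no liver probe cleared the floor in Tn- serum. The likeness of the liver shares therefore says little about liver miRNAs. The part of blood and liver sources, and of the difference in total signal, in the miR-7a result was not tested.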

How the data were processed

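The deposited values are normalized signal, which the authors obtained from nCounter Advanced Analysis Software (series' design text). The submitters' processing notes also list R 4.4. Per the labels' protocols, RNA from 200 µL of serum was eluted in 20 µL, and about 30 ng was hybridised for 16.5 h. How probes were scaled, background removed and the floor set is not stated. A second deposited table held the same signal in 1698 of 1698 values. Whole counts could not be recovered, since the background taken off is unknown, so no count model was used. Above the floor and up to 60 units, all 200 and 126 values of the Tn+ pools and all 78 of the Tn- pool fitted a regular grid to within 0.05 steps.

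Here limma 3.58.1 in R 4.3.3 (lmFit, eBayes, no covariate) was fitted to log2(signal + 1) over all probes, a scale that understates changes of low miRNAs. The fit was also run on simulated data with starting levels above those of the members, no floor and the same spread for all probes. That run does not show how the fit behaves for probes near the floor. Scaled values had 1 common floor, and probes tied over both Tn+ pools were then left out of the test. Alternatives were pseudocounts of 0.5 and 4, filters, 3 scalings, floors at 3 steps and leaving out a Tn+ pool. With floors at 3 steps only values at the floor were replaced, and lower values above the floor were kept. The rest was done in Python 3.11.15 (pandas 2.3.3, numpy 2.4.6). The members and lists were chosen with earlier results of these data known. Named miRNAs were the members, list members above the floor in some pool, the 5 nearest probes by signal and the nearest by sequence. Those named at the floor were chosen after their values were seen.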

Additional observations from a re-analysis of the deposited data

How the results depend on the processing

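No paired analysis was possible because the labels tie no Tn+ pool to the Tn- pool. The count of probes called by limma, 0 as reported, was 29 on the 259 probes above the floor in some pool, 43 with floors at 3 steps and 32 when only the 58 probes averaging 10 units or over were kept (a filter added after seeing the data), where the log2 ratio of miR-7a was 3.61, 2.59 and 3.61 and passed (adjusted limma p 0.0214, 0.00124 and 0.0244). miR-7a passes both filters only through the Tn+ pools where it is high, so these calls are no support. The count called was 0 with both pseudocounts (73 and 47 at an unadjusted limma p under 0.05). It was also 0 with all 3 scalings (17, 17 and 13 unadjusted), where 171, 113 and 88 probes were tested. The adjusted p of miR-7a ranged from 0.00124 to 0.63 over 9 fits, and its ratio from 1.00 to 3.98. For miR-7b the ratio was -1.44 with median-of-ratios scaling, -1.55 with that on the 100 highest probes and -1.61 with equal totals, with no test. For miR-375 it was -1.01, -1.76 and -2.03, of opposite sign to that reported, and no fit called it. The 68 probes 2-fold or more above the Tn- pool in each Tn+ pool became 33, 18 and 10 after these scalings. The 4 lower became 21, 33 and 39, 0 with a pseudocount of 4 and 1 with floors at 3 steps. The cause of these shifts was not tested. Leaving out either Tn+ pool, a value with no test, gave 96 to 120 probes higher and 7 to 12 lower, and ratios of 3.48 to 3.74 for miR-7a, -1.18 to -0.83 for miR-7b and -0.34 to 1.37 for miR-375, whose -0.34 is the value without Tn+ pool 2. The 1 Tn- pool and the floor limit what any of these values can show.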
